A study of Homo sapiens with 16 samples.

Results

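The response of LN229 glioblastoma cells to ischemic culture was measured in the presence of MK25, an inhibitor of the kinase MK2. The comparison set 2 libraries of ischemic culture with MK25 against 2 libraries of regular culture with MK25, 4 of the 16 libraries of the series, and it covered all 14024 genes of the table. LN229 is an established human glioblastoma line, and each library held bulk RNA from that line, so that fewer cells in a state and less RNA per cell cannot be told apart. Regular culture was rich medium with serum, and ischemic culture combined hypoxia with lower glucose, glutamine and serum. The effects of these changes cannot be told apart. In the same experiment, cells in both cultures also received DMSO, the solvent control, or VX745, an inhibitor of p38α, so that 6 groups of 2 libraries, 12 libraries together, were compared. A separate experiment compared ischemic with regular culture in 4 libraries of untreated cells. The study's methods list a dose for each inhibitor without tying it to these libraries, the time of exposure was not given in the sources used here, and nothing there said that the libraries of a group came from separate cultures, so p-values measure only the spread between these libraries, which may be technical. The question was which part of the ischemic response remained while MK2 was inhibited.

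MK2 is a kinase that p38 phosphorylates and activates under stress. Its best-known substrates bind AU-rich elements of short-lived mRNAs, among them those of cytokines, and their phosphorylation slows the decay of these mRNAs. Hypoxia acts through another route, the HIF transcription factors, whose α subunits escape prolyl hydroxylation and destruction when oxygen is low. Shortage of amino acids and stress in the endoplasmic reticulum act through ATF4 and its partner CHOP, which turn on genes of amino acid supply.

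The bases before the start of 6 genes are shown because these genes carry the results on the HIF, ATF4, cytokine and immediate early groups, and they were chosen after their values were seen. Each line gives the 250 bases before the gene start listed by RefSeq on GRCh38.p14, 5′ to 3′ on the strand of the gene, with the match in capitals. The capitals mark the HIF core motif ACGTG, searched on both strands, in CA9, BNIP3 and AK4, of which BNIP3 and AK4 hold the palindromic extension. They mark the C/EBP-ATF motif TGATGNAA in ASNS, the kappa B motif GGNNTTTCC in CXCL8 and the CArG box in EGR1. For AK4 and ASNS, RefSeq listed 4 and 2 starts, and the first was used. The windows lie at chr9:35673678-35673927 on the plus strand for CA9, at chr10:131981924-131982173 on the minus strand for BNIP3, at chr1:65147302-65147551 on the plus strand for AK4, at chr7:97872409-97872658 on the minus strand for ASNS, at chr4:73740319-73740568 on the plus strand for CXCL8 and at chr5:138465229-138465478 on the plus strand for EGR1.
CA9: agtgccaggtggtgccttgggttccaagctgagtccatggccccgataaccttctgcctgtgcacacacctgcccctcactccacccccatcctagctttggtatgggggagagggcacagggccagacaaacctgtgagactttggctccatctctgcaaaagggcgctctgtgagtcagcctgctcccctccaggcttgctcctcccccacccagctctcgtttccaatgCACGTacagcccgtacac
BNIP3: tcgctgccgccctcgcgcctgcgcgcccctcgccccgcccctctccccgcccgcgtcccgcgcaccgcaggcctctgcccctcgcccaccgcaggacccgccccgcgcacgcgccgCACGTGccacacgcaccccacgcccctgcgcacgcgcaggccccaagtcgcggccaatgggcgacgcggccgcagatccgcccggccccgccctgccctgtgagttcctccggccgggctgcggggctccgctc
AK4: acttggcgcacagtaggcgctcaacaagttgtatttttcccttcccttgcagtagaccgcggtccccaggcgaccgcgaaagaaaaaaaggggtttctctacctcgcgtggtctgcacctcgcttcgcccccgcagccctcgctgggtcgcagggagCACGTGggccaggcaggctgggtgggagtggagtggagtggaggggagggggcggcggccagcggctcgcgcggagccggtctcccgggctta
ASNS: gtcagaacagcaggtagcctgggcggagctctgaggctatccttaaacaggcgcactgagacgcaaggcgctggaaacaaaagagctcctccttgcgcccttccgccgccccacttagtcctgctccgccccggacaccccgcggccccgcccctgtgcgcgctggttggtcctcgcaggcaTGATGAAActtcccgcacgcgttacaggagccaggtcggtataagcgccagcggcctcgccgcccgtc
CXCL8: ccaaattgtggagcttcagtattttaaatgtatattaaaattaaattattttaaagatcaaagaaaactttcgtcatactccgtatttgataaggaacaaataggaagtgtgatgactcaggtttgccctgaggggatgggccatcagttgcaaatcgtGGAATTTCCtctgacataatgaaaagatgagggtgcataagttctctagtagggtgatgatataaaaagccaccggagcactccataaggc
EGR1: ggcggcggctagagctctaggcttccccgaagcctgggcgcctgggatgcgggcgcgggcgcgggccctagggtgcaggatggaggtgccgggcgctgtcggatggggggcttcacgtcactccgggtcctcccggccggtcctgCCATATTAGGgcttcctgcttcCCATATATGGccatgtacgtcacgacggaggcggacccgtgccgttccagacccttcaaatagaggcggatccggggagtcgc

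The share of promoters with each motif is given as a description of the letters, not of binding. The HIF core motif was in 66.7% of the HIF targets with a listed promoter (16 of 24) and in 28.7% of 11087 measured genes. The C/EBP-ATF motif was in 28.6% of ATF4 and CHOP targets (8 of 28) and in 2.46% of all. The kappa B motif was in 37.5% of the inflammatory genes (6 of 16) against 8.02% of all, and the AP-1 motif TGACTCA was in 25% of them (4 of 16) against 4.24%. The CArG box was in 16.7% of immediate early genes (3 of 18) against 1.46%. The motifs were searched on both strands in the bases before the start, and a gene counted once if any of its listed promoters held a match.

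The deposited values are log2 normalized CPM, reads scaled to a common library size, and whole read numbers could be recovered from all of them. The MK25 libraries held 37562668 and 35795468 reads in ischemic culture and 20122017 and 21807502 in regular culture. They included the largest and the smallest of the 12 libraries. With DMSO the depths overlapped, at 27239609 and 32850374 reads in ischemic and 30228774 and 23342980 in regular culture. Depth and culture therefore cannot be told apart in the MK25 comparison. With each library thinned to the smallest, its counts of calls were 1180 and 758. The replicates were distinct libraries, with a chi-square per gene of 6.32 in the ischemic pair and 6.93 in the regular pair, where sampling alone gives 1. All 10 markers of a glioblastoma line were measured, with VIM at means of 11.33 in regular and 12.11 in ischemic culture with MK25, and of the 10 SOX9 rose with MK25 while SOX2 and GFAP fell, GFAP from a mean of 0.98 to −0.34. Of 5 leukocyte, 3 endothelial and 3 neuron markers, 2, 0 and 2 were listed, and the defining markers PTPRC, CD3E, PECAM1, CDH5, VWF and RBFOX3 were not. ITGAM, a myeloid integrin, was found with 5 and 9 reads in regular and 119 and 100 reads in ischemic culture with MK25, and SYT1, a synaptic vesicle protein, rose by 1.5.

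Ischemic culture changed a large share of the genes while MK25 was present. With MK25, 1201 genes rose (8.56% of 14024) and 749 fell (5.34%), 13.9% in either direction, where a call in limma's linear model needed at least a 2-fold change and an adjusted p under 0.05. Both ischemic libraries lay beyond both regular libraries in 1197 of the rises and 747 of the falls. A 2-fold call with a small spread nearly ensures this, so it is no further support. The share over all genes was not counted. Under quantile normalization the counts were 1071 and 939, and the median change of all genes was near 0 on either scale. The median standard error of a response was 0.09 on the log2 scale. For 28 of the rises and 8 of the falls, both libraries of the lower culture held at most 3 reads, and their fold changes are not given.

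With DMSO, 1267 genes rose (9.03%) and 1138 fell (8.11%). Of the 1201 rises with MK25, 878 were also called with DMSO, which is 73.1% of the MK25 rises and 69.3% of the DMSO rises. Of the 749 falls, 545 were shared, which is 72.8% of the MK25 falls and 47.9% of the DMSO falls. The opposite call was made for 2 of the rises and for none of the falls. Rises of at least 8-fold numbered 98 with MK25 and 136 with DMSO.

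**Figure D1:**
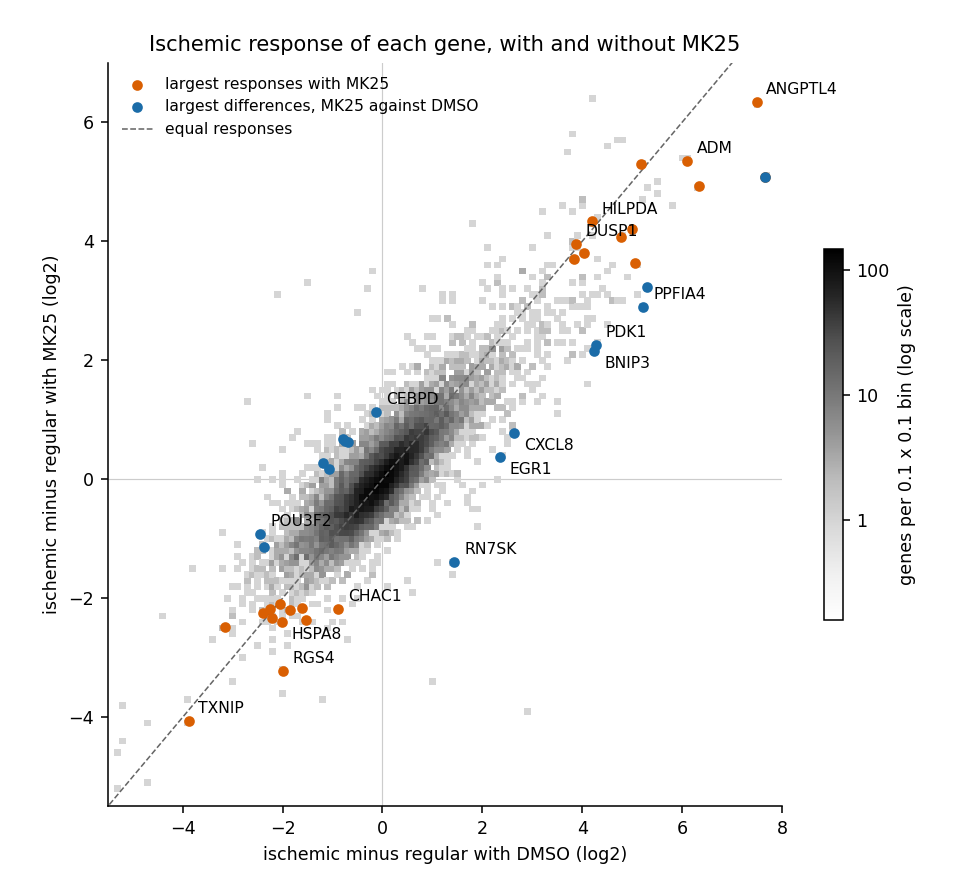
Ischemic minus regular log2 value of each gene with DMSO (x axis) and with MK25 (y axis), binned over 14024 genes, with the genes of the naming rules as points and equality as a dashed line. ANGPTL4 at 7.49 and 6.34 and TXNIP at −3.88 and −4.07 sit near the ends of the cloud, while BNIP3, PDK1, CXCL8 and EGR1 lie below the line.

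The difference of the 2 responses was tested in the same model, as an interaction of culture and treatment. The response was more positive with MK25 than with DMSO in 1468 genes (10.5%) and more negative in 1956 (13.9%). Among the 1267 rises with DMSO, 426 were smaller and 38 were larger with MK25, and 218 of them were smaller and not called with MK25. Of the 1138 falls with DMSO, 347 were smaller and 25 larger, and 271 were smaller and not called. In the other direction, 102 rises and 89 falls were called with MK25 only, with a called difference. These counts of smaller responses rest on genes chosen for their response with DMSO, whose libraries also enter the difference.

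Genes chosen in the untreated cells of the separate experiment carry no such dependence. Ischemic culture raised 1529 genes (11.3% of 13559) and lowered 1234 (9.1%) in those cells, 20.4% in either direction, of which 1499 and 1222 were in the table with MK25. Of the 1499 genes, 885 rose with MK25 (59.0%), beside 1021 with DMSO (68.1%) and 970 with VX745 (64.7%), and 1481 had a response above 0 with MK25. Their median log2 response was 1.13 with MK25, 1.26 with DMSO and 1.22 with VX745. The rise was smaller with MK25 than with DMSO in 392 of them (26.2%) and larger in 66 (4.40%), and 206 of the 392 were still called. Of the 1222 genes, 516 fell with MK25 (42.2%), 722 with DMSO (59.1%) and 521 with VX745 (42.6%). Their median was −0.92 with MK25, −1.11 with DMSO and −0.92 with VX745, and the fall was smaller with MK25 than with DMSO in 293 (24%) and larger in 77 (6.30%).

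A smaller response can lie in either culture, so MK25 was set against DMSO within each culture at a fold of at least 1.5. Of the 392 smaller rises, 80 were higher with MK25 in regular culture, 77 were lower with MK25 in ischemic culture, 3 were both, and 232 passed neither test. Of the 293 smaller falls, 11 were lower with MK25 in regular culture, 138 were higher with MK25 in ischemic culture, 1 was both, and 143 passed neither. Over all genes, 985 were higher with MK25 than with DMSO in ischemic culture (7.02%) and 371 lower (2.65%), 9.67% in either direction, and under quantile normalization 629 and 486. In regular culture, 264 genes were higher with MK25 (1.88%) and 85 lower (0.606%), 2.49% in either direction.

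Among genes with a mean of at least 3 log2 CPM over the 4 MK25 libraries, the largest rise was that of ANGPTL4, a secreted inhibitor of lipoprotein lipase and a HIF target. It stood at 1.84 and 1.74 log2 CPM in regular culture and at 8.24 and 8.04 in ischemic culture with MK25. With DMSO it stood at 0.81 and 0.86 and at 8.31 and 8.34. The cultures did not overlap, and the higher level with MK25 in regular culture set the 2 treatments apart. The response was 6.34 ± 0.09 (SE, adjusted p = 1.13e-18) with MK25 and 7.49 with DMSO, a difference of −1.15 ± 0.13 (adjusted p = 8.47e-06).

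ADM, the vasodilator peptide adrenomedullin, followed with 4.81 and 4.63 in regular and 10.00 and 10.14 in ischemic culture, a response of 5.35 ± 0.08 (adjusted p = 3.49e-18). NDRG1, a hypoxia-induced stress gene, responded by 4.93, HILPDA, a lipid droplet protein, by 4.33, GDF15, a stress cytokine, by 4.2 and IGFBP3, a binder of insulin-like growth factors, by 4.08. DEPP1, a FOXO target, responded by 5.29, BHLHE40, a repressor of the circadian clock, by 3.64 and PPP1R3C, a subunit that directs a phosphatase to glycogen, by 3.70. The pseudogene FKBP9P1 responded by 3.80, and its reads may be shared with its near-copy FKBP9. The 12 largest rises at this level of expression were completed by CA9 and DUSP1, described with their groups.

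Of these 12 rises, 7 were smaller with MK25 than with DMSO, and for the other 5 the difference did not pass the test. With DMSO, DEPP1 responded by 5.18, HILPDA by 4.2, DUSP1 by 3.87, PPP1R3C by 3.83 and FKBP9P1 by 4.03. The rises of ADM (difference −0.74), NDRG1 (−1.41), GDF15 (−0.79), IGFBP3 (−0.71) and BHLHE40 (−1.42) were smaller with MK25, and each of these 5 rises was at least 8-fold in both treatments.

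The largest fall among genes with a mean of at least 3 log2 CPM was that of TXNIP, an arrestin-related protein that restrains glucose uptake and follows glucose supply. It stood at 6.36 and 6.45 in regular and at 2.42 and 2.26 in ischemic culture with MK25, and at 6.24 and 6.28 and at 2.43 and 2.33 with DMSO. The 4 libraries of each culture lay close together whatever the treatment. The response was −4.07 ± 0.09 (adjusted p = 2.03e-16), and its difference from DMSO was −0.19 ± 0.12 (adjusted p = 0.287). ARRDC4, a paralog, also fell with MK25, by 1.28 on the log2 scale, whereas ARRDC3 rose by 3.07, and the other 3 of the 6 measured members of the TXNIP group passed in neither direction.

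RGS4, a brake on G protein signaling, stood at 4.49 and 4.74 in regular and at 1.41 and 1.38 in ischemic culture with MK25, and at 5.05 and 4.93 and at 2.80 and 3.19 with DMSO. Its fall was larger with MK25, at −3.23 against −1.99, as the ischemic libraries with MK25 lay below those with DMSO. SGK1, a kinase induced by glucocorticoids and serum, likewise had a larger fall with MK25 (−2.36 against −1.54 with DMSO). ADAMTS15, a secreted protease, fell by 2.48 with MK25 and by 3.15 with DMSO on the log2 scale. CDC25A, the phosphatase that activates cyclin-dependent kinases, fell by 2.33, FAM111B, a replication-associated protease, by 2.25, MAT2A, which makes S-adenosylmethionine, by 2.18 and the death receptor TNFRSF21 by 2.10, and the difference from DMSO did not pass the test for these 4. CHAC1, which degrades glutathione, fell by 2.18 with MK25, and its response of −0.88 with DMSO was not called (difference −1.29 ± 0.22, adjusted p = 0.000532).

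The targets of HIF rose with MK25 as a group. The members of this and the other lists were chosen with earlier results of these data known. Their counts beside all genes are therefore a description and not a test. Of 29 measured members of the list, 27 rose and 1, LOX, fell, where 8.56% and 5.34% of all genes did, and PFKFB3 had a response of 0.90 that missed the fold. The median response was 2.34 with MK25, 3.67 with DMSO and 3.30 with VX745, against −0.01 for all genes with MK25. The response was more negative with MK25 than with DMSO in 24 of the 29 (13.9% of all genes) and more positive in none. In 19 of these 24, the level with MK25 in regular culture was higher than with DMSO by at least 1.5-fold and the ischemic level was not called lower. Over the whole list, 20 members were higher with MK25 in regular culture (1.88% of all genes), and 4 were higher and 1 lower in ischemic culture.

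BNIP3, a receptor for the removal of mitochondria, showed this pattern library by library. In regular culture it stood at 7.09 and 6.99 with MK25 and at 5.24 and 5.04 with DMSO. In ischemic culture it stood at 9.20 and 9.21 with MK25 and at 9.38 and 9.39 with DMSO. The regular libraries with MK25 lay between the regular and the ischemic libraries with DMSO, and the ischemic libraries lay near each other. The response was 2.16 ± 0.07 (adjusted p = 8.79e-14) with MK25, 4.24 with DMSO and 3.76 with VX745, and the difference from DMSO was −2.08 ± 0.10 (adjusted p = 1.07e-09). Its regular level was 22.4% of its ischemic level with MK25 and 5.28% with DMSO. BNIP3L, its paralog, went from 5.95 and 5.91 to 7.89 and 8.03 with MK25 and from 4.40 and 4.2 to 8.01 and 7.95 with DMSO.

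PDK1, a kinase that keeps pyruvate from entering mitochondria, stood at 5.33 and 5.34 in regular and at 7.51 and 7.68 in ischemic culture with MK25. With DMSO it stood at 3.62 and 3.34 and at 7.77 and 7.74, and its response was 2.26 with MK25 and 4.27 with DMSO (difference −2.01 ± 0.12, adjusted p = 7.08e-09). SLC2A3, a high-affinity glucose transporter, had 4.91 and 4.91 in regular and 8.12 and 8.17 in ischemic culture with MK25, and 3.08 and 2.87 and 8.26 and 8.27 with DMSO. PPFIA4, a liprin and HIF target, had 4.52 and 4.52 and 7.41 and 7.40 with MK25, and 1.40 and 1.58 and 6.78 and 6.65 with DMSO. For these 3 genes both regular libraries with MK25 were above both with DMSO, and the ischemic level of PPFIA4 was also higher with MK25, by 0.69. AK4, an adenylate kinase of mitochondria, went from 5.49 and 5.62 to 7.56 and 7.69 with MK25 and from 3.90 and 3.70 to 7.58 and 7.63 with DMSO.

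CA9, a membrane enzyme that turns carbon dioxide into bicarbonate and acid, was among the lowest HIF targets in regular culture. It stood at 2.14 and 2.30 with MK25 in regular culture, at −1.77 and 0.27 with DMSO and at −1.37 and −2.01 with VX745. In ischemic culture it stood at 7.32 and 7.27 with MK25 and at 6.87 and 6.97 with DMSO. The regular libraries with MK25 were above the other 4 regular libraries, and the 2 with DMSO lay far apart. The 2 regular values with VX745 and the first with DMSO lay near the level of 3 reads. That level was −2.40 and −2.29 with VX745 and −2.59 in the first DMSO library, so the responses with DMSO and VX745 rest on few reads. The response was 5.08 ± 0.38 (adjusted p = 2.65e-09) with MK25 and 7.67 with DMSO, a difference of −2.59 ± 0.54 (adjusted p = 0.00212).

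Angiogenic and metabolic targets moved in the same way. VEGFA, the main growth factor of blood vessels, responded by 2.87 with MK25 and 3.91 with DMSO, from regular levels of 6.34 and 6.39 and of 5.42 and 5.47. DDIT4, an inhibitor of mTOR complex signaling, responded by 2.96 and 4.56. ANKRD37 responded by 2.98 and 4.80, KDM3A, a histone demethylase, by 2.09 and 3.11, and P4HA1, a collagen prolyl hydroxylase, by 1.43 and 2.34, and each of these differences passed the test. Over the 27 rising members, the regular level ran from 1.23% of the ischemic level with MK25 for ANGPTL4 to 42.3% for EGLN3.

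A few HIF targets had no called difference of response between MK25 and DMSO. HILPDA was at 4.58 and 4.40 in regular and 8.81 and 8.85 in ischemic culture with MK25, and at 4.11 and 3.80 and 8.16 and 8.14 with DMSO, and its difference was 0.14 ± 0.12 (adjusted p = 0.422). BHLHE41 responded by 2.12 with MK25 and 2.13 with DMSO, with both levels higher with MK25. EGLN3, an oxygen sensor, was called with MK25 (1.24 ± 0.25, adjusted p = 0.000294) and not with DMSO (0.62), and this difference did not pass the test (adjusted p = 0.217). LOX, which crosslinks collagen, was near 0 log2 CPM and had responses of −1.11 with MK25 and −1.12 with DMSO.

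Among 9 measured regulators of the HIF pathway, 4 rose with MK25 (8.56% of all genes) and none fell. EPAS1, the HIF-2α subunit, stood at 3.53 and 3.66 in regular and at 5.75 and 5.82 in ischemic culture, a response of 2.19 with MK25 and 2.44 with DMSO. EGLN1 responded by 1.29 and CITED2, a HIF-induced competitor for coactivators, by 1.57, and the fourth was EGLN3. HIF1A had a response of −0.51 with MK25, and VHL of −0.15. Regular HIF1A levels were 8.99 and 9.16 with MK25 and 9.05 and 8.94 with DMSO, and they overlapped.

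**Figure D2:**
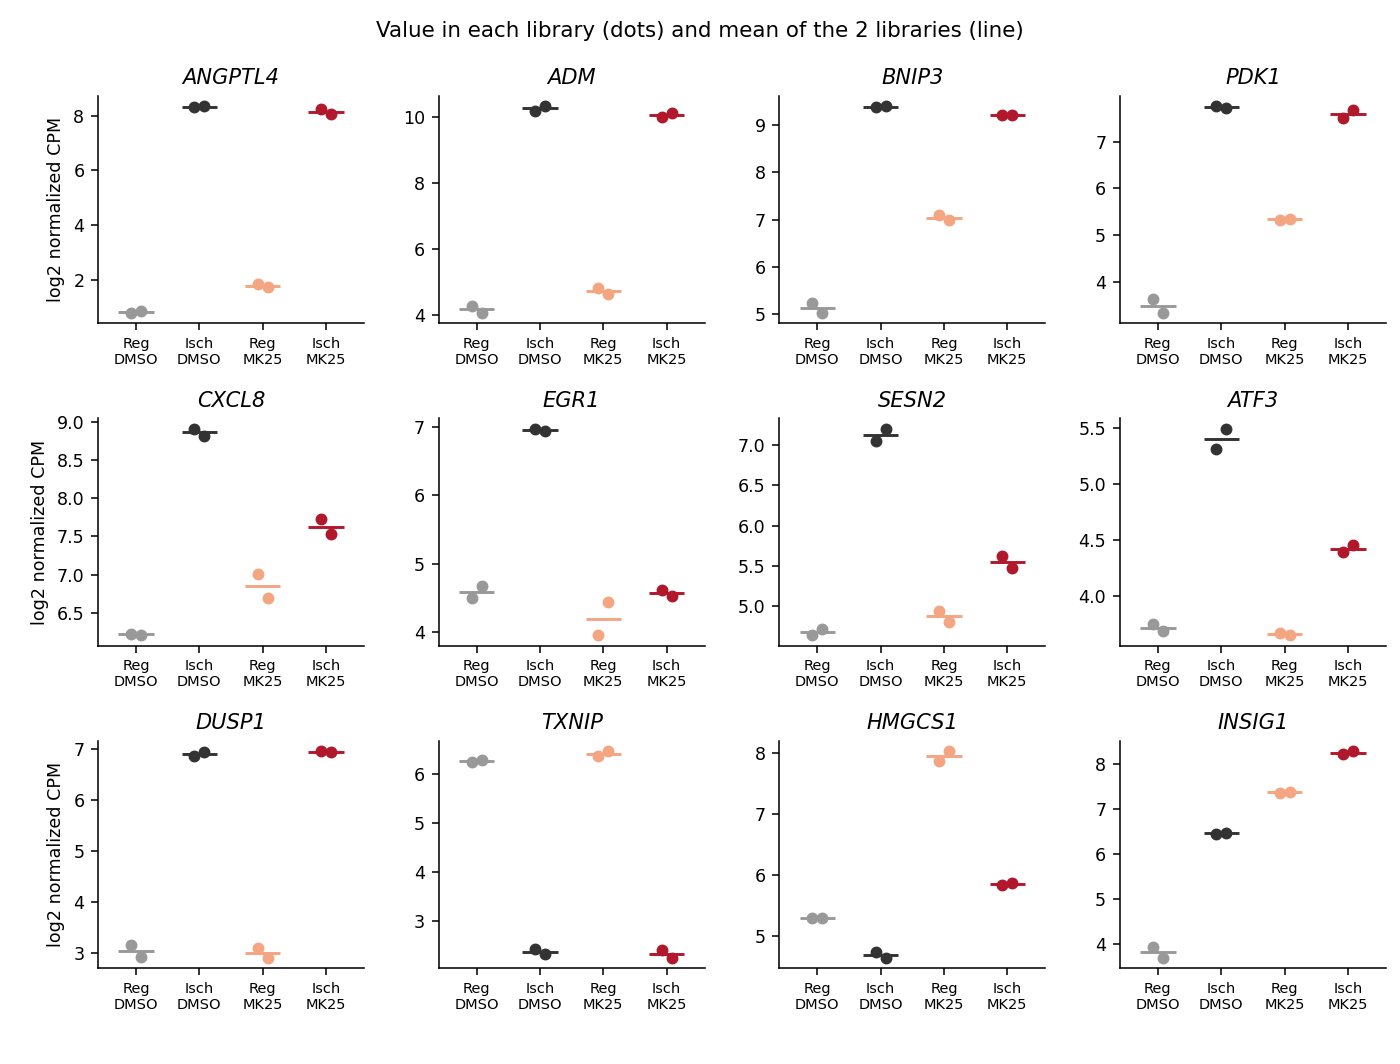
Log2 normalized CPM of 12 genes in the regular and ischemic libraries with DMSO and with MK25, each dot a library and each line the mean of 2. BNIP3 and PDK1 were higher with MK25 in regular culture, CXCL8, EGR1, SESN2 and ATF3 were lower with MK25 in ischemic culture, DUSP1 and TXNIP lay together, and HMGCS1 and INSIG1 were higher with MK25 in both cultures.

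Of 17 enzymes and regulators of glycolysis, 9 rose with MK25 and 15 with DMSO (8.56% and 9.03% of all genes), and none fell. The median response was 1.06 with MK25, 1.64 with DMSO and 1.28 with VX745. It was more negative with MK25 than with DMSO in 16 of the 17 (13.9% of all genes), the other being PFKM. HK2, the inducible hexokinase, stood at 7.56 and 7.75 in regular and at 10.26 and 10.31 in ischemic culture with MK25, and at 6.37 and 6.28 and at 10.44 and 10.46 with DMSO. LDHA, which makes lactate, stood at 11.40 and 11.43 and at 11.87 and 11.90 with MK25, and at 10.87 and 10.66 and at 12.06 and 12.05 with DMSO. The cultures did not overlap for either gene, but the response of LDHA was 0.47 with MK25, below the fold, and 1.29 with DMSO. The other members called with DMSO and not with MK25 were ALDOA (0.98 with MK25), TPI1 (0.36), GAPDH (0.57), PGAM1 (0.57) and ENO1 (0.68). The 9 members called with MK25 were HK1, HK2, GPI, PFKL, PFKP, PGK1, PDK1 and the brain-type enzymes ENO2 (2.88) and ALDOC (2.27).

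Among 8 genes for the export of carbon dioxide and protons, 3 rose and 1 fell with MK25 (8.56% and 5.34% of all genes). SLC16A3, the lactate exporter MCT4, stood at 5.95 and 5.84 in regular and at 7.33 and 7.33 in ischemic culture, a response of 1.43 with MK25 and 2.83 with DMSO (difference −1.4). CA12, a second membrane carbonic anhydrase, responded by 1.77 and CA9 by 5.08. SLC4A7, a bicarbonate importer, fell by 1.13 with MK25 on the log2 scale, and its response of −0.51 with DMSO was not called.

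Targets of ATF4 and CHOP formed the other large group that rose. Of 32 measured members, 18 rose and 1, CHAC1, fell with MK25 (8.56% and 5.34% of all genes), and 26 rose with DMSO (9.03%). The median response was 1.12 with MK25, 1.87 with DMSO and 1.61 with VX745. In 28 of the 32 the response was more negative with MK25 than with DMSO (13.9% of all genes), and in none was it more positive. The place of the difference varied. Of the 28, 6 were higher with MK25 in regular culture, 6 were lower with MK25 in ischemic culture, 1 was both, and 15 passed neither test. Across the list, 8 members were higher in regular culture and 7 were lower in ischemic culture with MK25 (1.88% and 2.65% of all genes).

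ASNS, asparagine synthetase, stood at 7.01 and 6.89 in regular and at 8.86 and 8.88 in ischemic culture with MK25, and at 6.48 and 6.51 and at 9.51 and 9.47 with DMSO. The libraries with MK25 lay inside those with DMSO in both cultures. The response was 1.93 ± 0.05 (adjusted p = 7.95e-15) with MK25 and 2.99 with DMSO, a difference of −1.06 ± 0.08 (adjusted p = 5.96e-08). TRIB3, a pseudokinase that feeds back on ATF4, responded by 3.13 and 4.02, and PPP1R15A, which restores translation after stress, by 2.41 and 3.08.

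SESN2, an inhibitor of mTORC1 activation, lost most of its response in ischemic culture. It stood at 4.94 and 4.81 in regular and at 5.63 and 5.48 in ischemic culture with MK25, and at 4.64 and 4.71 and at 7.05 and 7.20 with DMSO. The regular libraries were close, and the ischemic libraries with MK25 were below those with DMSO. The response of 0.68 ± 0.08 was below the fold with MK25, against 2.45 with DMSO, and the difference was −1.77 ± 0.11 (adjusted p = 9.99e-09). MTHFD2, a mitochondrial folate enzyme, responded by 1.16 and 2.33, and its ischemic levels of 8.17 and 8.19 with MK25 lay below 9.07 and 9.04 with DMSO. VLDLR, a lipoprotein receptor, was instead higher with MK25 in regular culture, at 5.01 and 5.14 against 3.79 and 3.74, and its ischemic levels were 6.97 and 6.96 against 7.04 and 7.08.

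Enzymes of serine synthesis rose with MK25. PHGDH, the entry enzyme, responded by 1.57, PSAT1 by 1.2, PSPH by 1.01 and SHMT2, which turns serine into glycine, by 1.29, and each was more negative than with DMSO, where they responded by 2.31, 2.02, 1.62 and 1.90. Of the tRNA synthetases, AARS1 (1.32), WARS1 (1.58) and GARS1 (1.27) rose with MK25, while SARS1 (0.87) and NARS1 (0.30) did not reach the fold. DDIT3, which encodes CHOP, stood at 5.40 and 5.15 in regular and at 6.22 and 6.10 in ischemic culture, a response of 0.89 with MK25, below the fold, and 1.84 with DMSO.

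Sensors and factors of the unfolded protein response were mostly below the fold. Of 13 measured, ERN1, which encodes the sensor IRE1α, responded by 1.83 and XBP1, the factor that IRE1α activates by splicing, by 1.03 with MK25. XBP1 stood at 6.25 and 6.20 in regular and at 7.29 and 7.22 in ischemic culture with MK25, and at 6.05 and 5.94 and at 8.38 and 8.47 with DMSO. Both ischemic libraries with MK25 were below both with DMSO, and the difference of the responses was −1.4. ATF4 itself responded by 0.88 with MK25, below the fold, and by 1.77 with DMSO. Of 21 chaperones and folding enzymes of the endoplasmic reticulum, none was called with MK25. Their median response was −0.01, against 0.27 with DMSO, and 12 were more negative with MK25, or 7 without the second ischemic DMSO library and 4 under quantile normalization. HSPA5, the chaperone BiP, responded by −0.01 with MK25 and 0.76 with DMSO. Over all genes, 13.9% had a more negative response with MK25 than with DMSO.

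Cytokines and inflammatory mediators were split. Of 21 measured, 7 rose and 3 fell with MK25 (8.56% and 5.34% of all genes), and 10 rose with DMSO (9.03%). CXCL2, CXCL5 and TNF were on the list but not among the measured genes. The study followed TNF by q-RT-PCR, and these data do not address it. The median response was 0.67 with both MK25 and DMSO and 1.25 with VX745. The response was more negative with MK25 than with DMSO in 7 members and more positive in 2 (13.9% and 10.5% of all genes). All 7 were lower with MK25 in ischemic culture. Across the list, 10 members were lower and 3 higher with MK25 in ischemic culture (2.65% and 7.02% of all genes). In regular culture 2 were higher and 2 lower (1.88% and 0.606% of all genes).

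CXCL8, the neutrophil chemokine interleukin-8, had one of the largest differences. It stood at 7.0 and 6.69 in regular and at 7.73 and 7.53 in ischemic culture with MK25, and at 6.23 and 6.21 and at 8.91 and 8.81 with DMSO. The cultures did not overlap with MK25, but the libraries with MK25 lay between those of the 2 cultures with DMSO. The response of 0.78 ± 0.08 was below the fold with MK25 and 2.64 with DMSO, and the difference was −1.86 ± 0.12 (adjusted p = 1.07e-08). In ischemic culture the level was 2.34-fold lower with MK25 than with DMSO, and in regular culture it was 1.54-fold higher.

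PTGS2, the inducible cyclooxygenase, still rose with MK25. It stood at 3.16 and 2.99 in regular and at 6.0 and 6.03 in ischemic culture with MK25, and at 2.67 and 2.54 and at 6.65 and 6.71 with DMSO, with responses of 2.94 and 4.08 (difference −1.13 ± 0.12, adjusted p = 4.49e-06). IL1B stood at 2.41 and 2.55 and at 3.67 and 3.71 with MK25, and at 3.09 and 3.14 and at 4.81 and 4.80 with DMSO. It was lower with MK25 in both cultures, and its response was 1.21 with MK25 and 1.69 with DMSO. IL1A was also lower in both cultures, and its response of 1.98 did not differ past the test from 2.32 (adjusted p = 0.18). CSF2, the cytokine GM-CSF, responded by 1.96 and 3.21, with ischemic levels of 1.76 and 1.61 with MK25 and 2.93 and 2.50 with DMSO.

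LIF, a cytokine of the interleukin-6 family, had responses of −0.60 with MK25 and 0.02 with DMSO, and IL11, of the same family, of −0.64 and 0.25. PLAUR, the urokinase receptor, had a response of 0.79 with MK25, below the fold, and 1.54 with DMSO. ICAM1, an adhesion molecule, responded by 2.02 and 2.01 and PTGES, a prostaglandin synthase, by 1.68 and 1.72, and the difference did not pass the test for ICAM1 or PTGES. CCL2, the monocyte chemokine, fell less with MK25, from 5.30 and 5.20 to 4.03 and 3.49, against 5.15 and 5.34 to 2.78 and 2.84 with DMSO. IL6 lay between 0.37 and 1.11 log2 CPM in the libraries with MK25 and was not called.

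Immediate early genes behaved similarly. Of 23 measured, 8 rose and 2, EGR3 and NR4A1, fell with MK25 (8.56% and 5.34% of all genes). The median was 0.68 with MK25, against 0.96 with DMSO and 0.96 with VX745. In 12 the response was more negative with MK25 than with DMSO (13.9% of all genes), and it was more positive in FOS and KLF10 (10.5% of all genes). Of the 12, 9 were lower with MK25 in ischemic culture, and none was higher in regular culture.

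EGR1, a zinc finger factor induced by growth signals, stood at 3.96 and 4.44 in regular and at 4.62 and 4.53 in ischemic culture with MK25, and at 4.50 and 4.68 and at 6.97 and 6.93 with DMSO. The ischemic libraries with MK25 were at the level of the regular libraries with DMSO. The response was 0.38 ± 0.11 with MK25 and 2.36 with DMSO, and the difference was −1.98 ± 0.16 (adjusted p = 2.28e-07). In ischemic culture the level was 5.18-fold lower with MK25 than with DMSO. MYC stood at 5.75 and 5.60 in ischemic culture with MK25 and at 6.85 and 6.91 with DMSO, with responses of 0.68 and 1.93. ATF3, a stress-induced repressor, stood at 4.39 and 4.45 in ischemic culture with MK25 and at 5.31 and 5.50 with DMSO, with responses of 0.76 and 1.69.

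FOS went the other way. It stood at 2.67 and 2.61 in regular and at 4.63 and 4.47 in ischemic culture with MK25, and at 2.50 and 2.53 and at 3.32 and 3.18 with DMSO. Both ischemic libraries with MK25 were above both with DMSO, and the response was 1.91 ± 0.12 (adjusted p = 1.83e-10) with MK25 and 0.73 with DMSO, a difference of 1.18 ± 0.16 (adjusted p = 8.5e-05). FOSL2, a member of the same family, responded by 2.16 and 2.14, and JUN, their partner, by 1.72 and 1.63, with JUN lower with MK25 in both cultures. KLF10, which is induced by TGF-β, responded by 1.66 and 1.21.

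Phosphatases that switch off MAP kinases were partly retained. Of 9 measured, 4 rose and 1, DUSP2, fell with MK25 (8.56% and 5.34% of all genes), with a median of 0.73 against 1.44 with DMSO. DUSP1, which acts on p38 and JNK, stood at 3.09 and 2.91 in regular and at 6.96 and 6.94 in ischemic culture with MK25, and at 3.16 and 2.93 and at 6.86 and 6.95 with DMSO. The libraries of each culture lay together, with a response of 3.95 ± 0.09 (adjusted p = 2.61e-16) and a difference of 0.08 (adjusted p = 0.668). DUSP5, which acts on ERK, responded by 1.55 with MK25 and 2.93 with DMSO, and DUSP10, which acts on p38 and JNK, by 0.73 and 2.03, and both differences passed the test.

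NFκB subunits and feedback genes rose in 6 of 14 members and fell in 1, NFKBIZ (8.56% and 5.34% of all genes). TNFAIP3, the deubiquitinase A20 that limits NFκB signaling, stood at 4.64 and 4.63 in regular and at 8.16 and 8.04 in ischemic culture with MK25, and at 3.95 and 4.09 and at 7.15 and 7.26 with DMSO. It was higher with MK25 in both cultures, and its response was 3.47 with MK25 and 3.19 with DMSO (difference 0.28, adjusted p = 0.0355). Of the 14 members, 3 with TNFAIP3 had a more positive response with MK25 than with DMSO, but 0 without the second regular DMSO library, 0 without the variance trend and 1 without the first ischemic MK25 library. Another 3 of the 14 had a more negative response with MK25, and the median difference over the list was 0.02. Over all genes, 10.5% were more positive and 13.9% more negative. NFKBIA, the inhibitor IκBα, responded by 1.12 and 0.77 and TNIP1, a partner of A20, by 1.82 and 2.31. The median over the list was 0.73 with MK25 and 0.57 with DMSO.

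The p38 and MK2 cascade itself was not called in any of 19 members in response to ischemic culture with MK25. MAPKAPK2, which encodes MK2, stood at 7.35 and 7.32 in regular and at 7.09 and 6.98 in ischemic culture, a response of −0.30. The response was more positive with MK25 than with DMSO in 4 of the 19, where 10.5% of all genes were, and more negative in none. The median difference over the list was −0.002, and the count is not read as a result about the cascade. The 4 were MAPK14, which encodes p38α (−0.21 against −0.45), its activators MAP2K3 (−0.51 against −0.91) and MAP2K6 (−0.62 against −1.51), and TAB1. TAB1, an adaptor, had 0.56 against 0.23. The difference for MAPK14 was not called without the first ischemic DMSO, the first ischemic MK25, the first regular DMSO or the second regular MK25 library. Transcript levels do not show the activity of these kinases. Of 13 regulators of AU-rich mRNA decay, ZFP36, the decay factor tristetraprolin that MK2 phosphorylates, rose by 1.74 with MK25, from 2.27 and 2.21 to 4.12 and 3.84, and its response with DMSO was 1.49. The other 12 were not called, and PARN ranged from −3.33 to 2.21 among the 4 libraries with MK25.

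Enzymes of sterol synthesis, which SREBP2 turns on when cholesterol is low, had a pattern of their own. Of 22 measured, 7 fell and none rose with MK25 (5.34% and 8.56% of all genes). The median response was −0.73, against −0.11 with DMSO and −0.16 with VX745. In regular culture, 20 of the 22 were higher with MK25 than with DMSO (1.88% of all genes). In ischemic culture 15 were higher (7.02% of all genes) and none lower. In 16 the response was more negative with MK25 than with DMSO (13.9% of all genes).

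HMGCS1, which makes HMG-CoA, stood at 7.88 and 8.03 in regular and at 5.84 and 5.87 in ischemic culture with MK25, and at 5.29 and 5.30 and at 4.74 and 4.65 with DMSO. Each library with MK25 was above each library with DMSO, and most so in regular culture. The response was −2.10 ± 0.07 (adjusted p = 5.48e-14) with MK25 and −0.60 with DMSO. MSMO1, a sterol demethylase, fell by 1.43 and SQLE, squalene epoxidase, by 1.34 with MK25 on the log2 scale, and their responses with DMSO were −0.08 and −0.14.

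INSIG1, which retains SREBP in the endoplasmic reticulum, stood at 7.35 and 7.38 in regular and at 8.21 and 8.28 in ischemic culture with MK25, and at 3.93 and 3.68 and at 6.45 and 6.45 with DMSO. The regular level was 11.8-fold higher with MK25 than with DMSO and the ischemic level 3.47-fold higher, and the response was 0.88 with MK25 and 2.65 with DMSO. Each library with MK25, in either culture, was above all libraries with DMSO. Of 11 genes of fatty acid synthesis, SREBF1 rose with MK25 (1.53, with 1.32 for DMSO), none fell, and 4 were higher with MK25 in each culture.

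**Figure D3:**
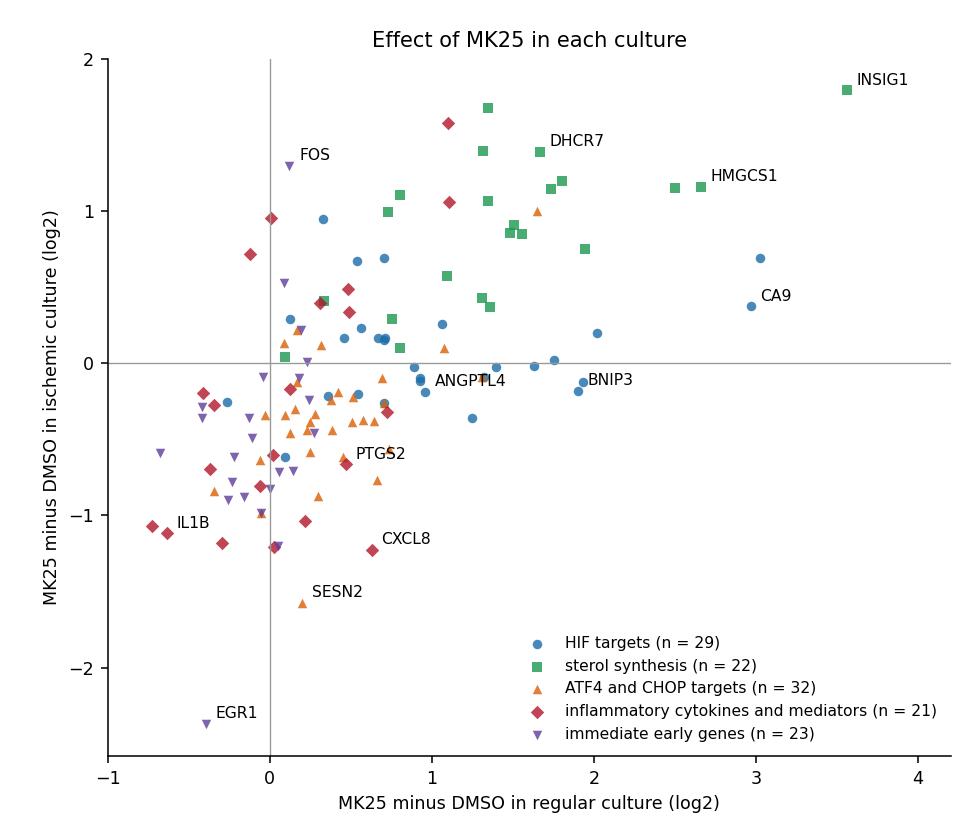
MK25 minus DMSO on the log2 scale within regular culture (x axis) and within ischemic culture (y axis) for the members of 5 lists, each point a gene. HIF targets such as BNIP3 (1.90 and −0.18) lie to the right near 0, sterol genes such as HMGCS1 (2.66 and 1.16) lie up and to the right, and CXCL8 (0.63 and −1.23) and EGR1 (−0.39 and −2.37) lie below 0.

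Some further groups held a larger share of falls with MK25 than the 5.34% of all genes, and others held few or none. Over all genes, 13.9% had a more negative response with MK25 than with DMSO. Of 33 genes of DNA replication, 10 fell with MK25 and 7 with DMSO (8.11% of all genes), with medians of −0.66 and −0.45. CCNE2, a cyclin of entry into S phase, stood at 4.91 and 4.93 in regular and at 2.68 and 2.78 in ischemic culture with MK25, a response of −2.19 against −1.86 with DMSO. Its partner CCNE1 responded by −2.16 and −1.62, PCNA, the sliding clamp, by −1.35 and −1.29 and MCM6, of the replicative helicase, by −1.25 and −1.06. MK25 gave a more negative response than DMSO in 9 members, but in 4 or 5 without the first regular MK25 library, either ischemic DMSO library or the second regular DMSO library, and under quantile normalization. None of 27 genes of mitosis was called with MK25, with a median of 0.15. Their response was more positive than with DMSO in 6 (10.5% of all genes), or in 12 under quantile normalization.

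Among 10 genes of cell cycle arrest, 4 rose and 1 fell with MK25 (8.56% and 5.34% of all genes). CCNG2, a cyclin of quiescent cells, stood at 4.68 and 4.76 in regular and at 7.17 and 7.41 in ischemic culture, a response of 2.57 with MK25 and 3.93 with DMSO. GADD45B, a stress sensor, responded by 2.43 and 1.62, a larger rise with MK25. CCND1, a cyclin of the G1 phase, stood at 9.12 and 9.03 and at 7.36 and 7.31, and its fall was larger with MK25 (−1.74 against −1.07). CDKN1A, the inhibitor p21, had a response of 0.96 with MK25, below the fold, and 1.49 with DMSO.

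Cytosolic heat shock proteins fell in 8 of 14 members with MK25 and in 4 with DMSO (5.34% and 8.11% of all genes). Their medians were −1.14, −0.72 and −1.12 with MK25, DMSO and VX745. HSPA8, the constitutive chaperone HSC70, stood at 11.38 and 11.30 in regular and at 8.97 and 8.92 in ischemic culture with MK25, a response of −2.40 ± 0.06 (adjusted p = 1.1e-15) against −2.02 with DMSO. HSPE1, a mitochondrial chaperonin that is also on the list, responded by −1.70 and −0.78, and HSP90AA1 by −1.28 and −0.65, and both differences passed the test. The response was more negative with MK25 than with DMSO in 6 members (13.9% of all genes), and in 3 under quantile normalization.

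Over all genes, 5.34% fell with MK25 and 8.11% with DMSO, and 13.9% had a more negative response with MK25. Of 22 genes of ribosome biogenesis, 7 fell with MK25 and 3 with DMSO, with medians of −0.81 and −0.55. NOP56, of the box C/D particles that guide methylation of ribosomal RNA, fell from 8.41 and 8.33 to 6.67 and 6.65 (−1.71, with −1.44 for DMSO), and NOP2, a methyltransferase of ribosomal RNA, responded by −1.52 and −1.29. A more negative response with MK25 was called in 13, but in 8 without the first ischemic DMSO, the second ischemic MK25 or the first regular MK25 library. Of 26 genes of oxidative phosphorylation, 1, COX7B, fell with MK25 (−1.07), the median was −0.36 against −0.10 with DMSO, and 10 were more negative, or 6 without the first regular MK25 library, 6 without the variance trend and 5 under quantile normalization.

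**Figure D4:**
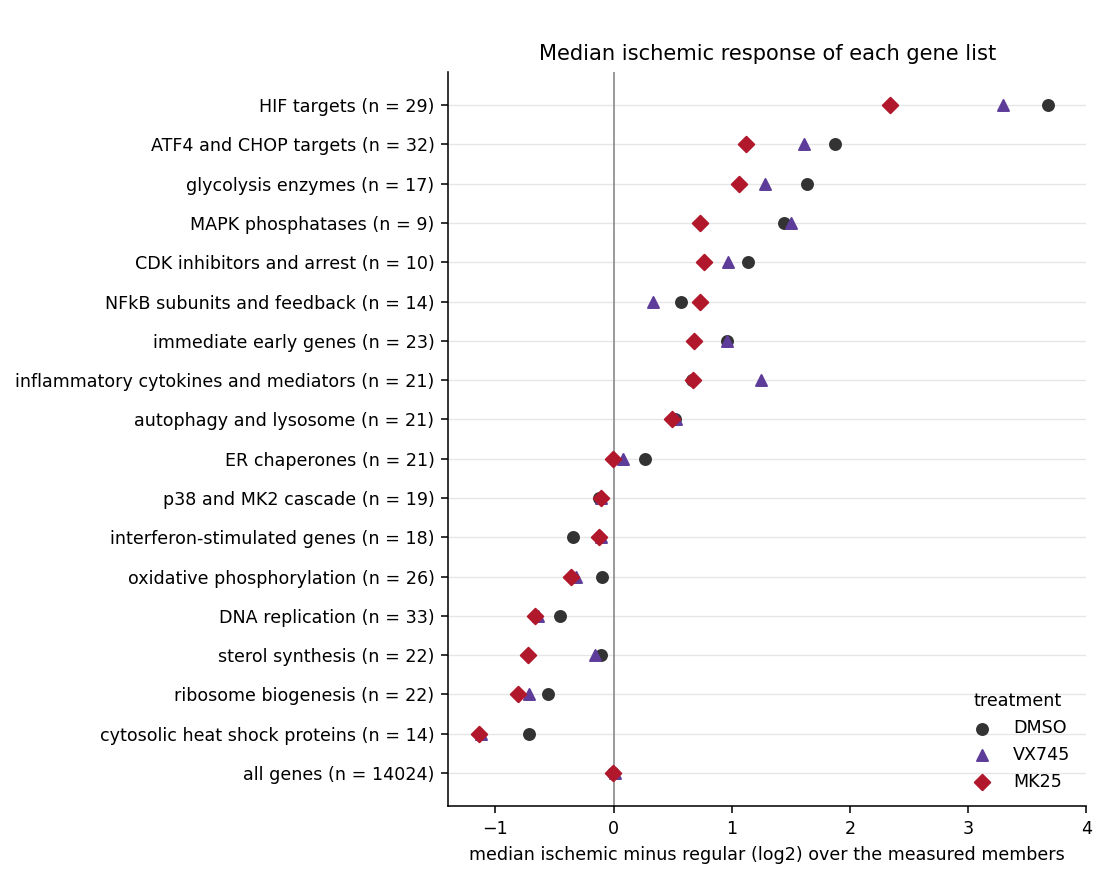
Median ischemic minus regular log2 value over the measured members of 17 gene lists and of all genes with DMSO (circles), VX745 (triangles) and MK25 (diamonds). HIF targets at 2.34 and ATF4 and CHOP targets at 1.12 with MK25 lie left of their DMSO medians of 3.67 and 1.87, and sterol synthesis lies at −0.73 against −0.11.

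For the small lists that follow, 8.56% of all genes rose and 5.34% fell with MK25. The response was more positive with MK25 than with DMSO in 10.5% of all genes and more negative in 13.9%. Counts of a few members beside these shares are not read as results about a list. Among 21 genes of autophagy and lysosomes, SQSTM1, an autophagy receptor, rose with MK25 (1.07, with 1.11 for DMSO) beside BNIP3 and BNIP3L, which are also HIF targets, and none fell. Of 24 NRF2 targets, 3 rose and 2 fell, among them PRDX1, a peroxiredoxin, which responded by −1.55, and OSGIN1, by 1.32, and the response was more negative with MK25 than with DMSO in 9, or in 5 under quantile normalization. In the BCL2 family of 13, BBC3, the death-promoting protein PUMA, rose by 2.15 and BID, its relative, fell by 1.25 on the log2 scale, while PMAIP1, the related protein NOXA, had responses of −0.75 with MK25 and 0.36 with DMSO (difference −1.10). Of 18 SRF and actin genes, CCN1, a matricellular protein, rose by 1.94 and ACTA2, smooth muscle actin, by 1.00. Of 25 matrix genes, 4 rose, among them the collagen lysyl hydroxylases PLOD1 (1.36) and PLOD2 (1.12), and 2 fell, ADAMTS15 and LOX. Of 18 interferon-stimulated genes, ISG20, an exonuclease, rose by 1.63, and 6 were higher with MK25 than with DMSO in ischemic culture (7.02% of all genes). The response of 4 was more positive with MK25 than with DMSO, but of 1 without the first ischemic DMSO and of 2 without the first regular MK25 library. That of ISG20 was more negative, a call lost without the first ischemic or the first regular MK25 library. TNF, which the study also names, was not among the measured genes. Of 16 other genes that the study names, 7 rose and none fell with MK25, with a median of 0.88. With DMSO, 11 of the 16 rose, with a median of 1.80, and the response of 10 was more negative with MK25. The study names some of these genes from its analysis of libraries of this series and others from patient tumors, so the list is not wholly independent evidence of direction.

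Among genes with a mean of at least 3 log2 CPM over the MK25 and DMSO libraries, those whose response was most positive relative to DMSO were POU3F2, EEPD1, PRAG1, SRGAP3, MAP1A, CEBPD, AHDC1 and FAM222A, with differences from 1.53 down to 1.22. POU3F2, a neural transcription factor, stood at 3.58 and 3.75 in regular and at 2.71 and 2.79 in ischemic culture with MK25, and at 4.24 and 3.93 and at 1.72 and 1.57 with DMSO. Both ischemic libraries with MK25 were above both with DMSO, and its response was −0.91 with MK25, below the fold, and −2.45 with DMSO. MAP1A, a microtubule-associated protein, had responses of 0.62 and −0.69. CEBPD, a C/EBP factor, rose with MK25 (1.13), and its ischemic libraries with DMSO, at 2.65 and 3.42, lay apart. For 7 of these 8 genes, all but FAM222A, the level with MK25 was higher than with DMSO in ischemic culture by at least 1.5-fold.

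At the other end, the most negative differences at this level of expression were those of RN7SK (−2.83), CA9, PPFIA4, BNIP3, SLC2A3, PDK1, EGR1 and CXCL8 (−1.86). CA9, PPFIA4, BNIP3 and SLC2A3 are HIF targets and PDK1 stands with glycolysis, and these 5 were higher with MK25 than with DMSO in regular culture, whereas EGR1 and CXCL8 were lower with MK25 in ischemic culture. RN7SK, the 7SK small nuclear RNA, stood at 3.19 and 5.97 in regular and at 2.32 and 4.07 in ischemic culture with MK25, so that the cultures overlapped, and its difference (adjusted p = 0.0253) did not pass the test in 7 alternatives, without the variance trend (adjusted p = 0.151), with voom and without any of 5 single libraries among the 8 compared.

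VX745 inhibits p38α, the kinase above MK2, and its response had the highest correlation across genes with that of MK25. Of the falls with MK25, however, 70.1% were shared with VX745 and 72.8% with DMSO. As with MK25, the VX745 libraries were deeper in ischemic culture (33704896 and 31694666 reads) than in regular culture (23818522 and 21529408). Whether this depth adds to the likeness was not tested. With VX745, 1302 genes rose (9.28%) and 730 fell (5.21%), of which 952 rises and 525 falls were shared with MK25, or 79.3% and 70.1% of the MK25 calls and 73.1% and 71.9% of the VX745 calls. Across genes, Pearson's r between the response with MK25 and that with VX745 was 0.91, and it was 0.86 with DMSO over the same 14024 genes and 0.87 with untreated cells over 13475, as a description of genes that share a library in each response. The response was more positive with MK25 than with VX745 in 178 genes (1.27%) and more negative in 502 (3.58%), 4.85% in either direction. These counts were small and unstable, from 65 without the second ischemic VX745 library to 200, and from 295 without that library to 476. More positive genes numbered 90 and 118 without the first and the second ischemic MK25 library, 91 without the first ischemic VX745 library, 99 without the first regular MK25 library and 81 without the second regular VX745 library, and more negative genes numbered 329 without the first ischemic MK25 and 297 without the first ischemic VX745 library.

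HIF targets made up part of the difference from VX745, with 22 of 29 more negative with MK25 and 2 more positive (3.58% and 1.27% of all genes). CA9 responded by 8.57 with VX745 and PPFIA4 by 4.75, with differences of −3.50 and −1.86. The regular values of CA9 with VX745 lay near the floor of 3 reads, which limits the size of its response and difference. Sterol genes were more negative in 13 of 22 and ATF4 and CHOP targets in 21 of 32. CREB5, a CREB family factor, stood at 3.82 and 3.70 in regular and at 3.99 and 4.14 in ischemic culture with MK25, and at 4.15 and 4.29 and at 6.33 and 6.35 with VX745, and RGS4 responded by −3.23 with MK25 and −1.38 with VX745. HBEGF, a ligand of the EGF receptor, had a response of −0.22 with MK25, and with VX745 it rose by 1.25.

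The genes more positive with MK25 than with VX745 by the same rule were FOS (1.38), ID2 (1.26), ID3 (1.22) and ABCG1 (1.14). ID2 and ID3 inhibit basic helix-loop-helix factors, and ID3 had responses of −0.99 with MK25 and −2.21 with VX745. ABCG1, a cholesterol exporter, stood at 1.24 and 1.67 in regular and at 3.80 and 3.67 in ischemic culture with MK25, a response of 2.28 against 1.15 with VX745. The doses that the study's methods list for the 2 inhibitors differ, so these are differences between treatments and not at matched doses.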

How the data were processed

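RNA of LN229 cells was sequenced in 2 experiments, and the 12 libraries with DMSO, VX745 or MK25 entered the main fit. Per the paper's methods and the labels, the authors used TRIzol RNA, the SMART-Seq mRNA HT kit and Nextera XT, trimmed paired-end reads on Galaxy, aligned them with HISAT2 to GRCh38 and normalized with edgeR, with no versions given in the submitters' processing notes. The deposited unit is log2 normalized CPM per library and gene, by Entrez identifier, and replicates were not pooled. Symbols were matched for 99.31% of the identifiers in the table with MK25.

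The deposited values were used with no further filter or pseudocount. Undoing the logarithm and removing a constant offset gave whole reads within 0.01 for 100% of values, which were used only for depth, floors and alternatives. Since the values are on a log2 scale, the edgeR test that the study names was not run, and limma 3.58.1 in R 4.3.3 was the main test, with 1 mean per group, empirical Bayes with a variance trend and two-sided p-values adjusted by Benjamini-Hochberg over 14024 genes. A response was called where it was at least 2-fold with an adjusted p under 0.05, a difference of responses at an adjusted p under 0.05 and a difference of treatments within a culture also at a fold of at least 1.5. The untreated libraries were fitted apart. Counting floors and recovered depths cover counting error only, and a floor of 3 reads was used.

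Named genes were the 12 largest rises and falls with MK25, the 8 most positive and negative differences from DMSO and the 4 from VX745, with a mean of at least 3 on the log2 scale, a symbol not starting with LOC and, for the responses, both libraries of a culture beyond the other, and members of the gene lists. The members and lists were chosen with earlier results of these data known. The code was tested on simulated data. Alternatives were quantile normalization, median centring, voom on the recovered reads, a pseudocount of 1 CPM, thinning to equal depth, other fold thresholds, no variance trend, a replicate block, and leaving out each library in turn. Tables were made with Python 3.11.15, numpy 2.4.6 and pandas 2.3.3. Promoter windows are the 250 bases before each start in RefSeq. A few list members were counted with their lists but are not reported here by name.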

Additional observations from a re-analysis of the deposited data

Results flagged for a closer look

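The ischemic response differed with the treatment, by the test of the interaction, in 1468 genes that were more positive and 1956 that were more negative with MK25 than with DMSO, and in 178 and 502 against VX745. Among the named genes, the difference from DMSO on the log2 scale was 1.53 for POU3F2, 1.46 for EEPD1, 1.46 for PRAG1, 1.40 for SRGAP3, 1.31 for MAP1A, 1.26 for CEBPD, 1.24 for AHDC1 and 1.22 for FAM222A. It was −2.83 for RN7SK, −2.59 for CA9, −2.33 for PPFIA4, −2.08 for BNIP3, −2.06 for SLC2A3, −2.01 for PDK1, −1.98 for EGR1 and −1.86 for CXCL8. For genes with the largest responses it was −1.15 for ANGPTL4, −0.74 for ADM, −1.41 for NDRG1, −0.79 for GDF15, −0.71 for IGFBP3 and −1.42 for BHLHE40 among the rises. Among the falls it was −1.23 for RGS4, 0.67 for ADAMTS15, −0.37 for HSPA8, −0.83 for SGK1, −0.33 for CCNE2, −1.29 for CHAC1 and −0.55 for CCNE1. Against VX745 the difference was 1.38 for FOS, 1.26 for ID2, 1.22 for ID3, 1.14 for ABCG1, −3.50 for CA9, −1.86 for PPFIA4, −1.84 for RGS4 and −1.82 for CREB5. Each passed an adjusted p of 0.05 in limma. With 2 libraries per group, no library could be tested for standing apart.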

How the results depend on the processing

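Of 266 counts over all genes recomputed under the alternatives, 238 stayed within 1.5 times the reported count, as did 3444 of 3696 counts of list members. With MK25, 2476 genes rose and 2100 fell at a fold of at least 1.5, and 4696 and 4722 with no fold threshold. A pseudocount of 1 CPM gave 455 falls with MK25, 677 with DMSO and 429 with VX745, 322 falls of the untreated set called with MK25, 622 genes higher with MK25 than with DMSO in ischemic culture, where quantile normalization gave 629, and 56 lower in regular culture against 85 reported. With a difference of at least 1.5-fold, 618 and 495 genes were more positive and more negative than with DMSO and 49 and 221 than with VX745, for which the fit without the variance trend gave 75 and 272. The cause was not tested beyond what each threshold or pseudocount does by construction. Leaving out single libraries gave 65 to 200 and 295 to 476 genes against VX745, and 54 (without the second regular DMSO library) to 174 (without the first) lower with MK25 in regular culture. It gave 1163 to 1237 rises and 740 to 789 falls with MK25, and 1047 to 1566 and 1408 to 2133 genes against DMSO. Samples of different groups shared only a replicate number, with correlations of deviations from −0.27 to 0.32 over 15 pairs of groups. The largest, 0.32, was that of ischemic and regular culture with MK25, the groups compared here. The replicate block gave 1201 and 754 calls with MK25, 1455 and 1958 against DMSO and 180 and 492 against VX745. This block changed no other count over all genes by over 1.5 times. Of 720 values of named genes, 9 lost significance and none reversed. These were RN7SK in 7 alternatives, CEBPD without the variance trend (adjusted p = 0.0633) and CA9 against VX745 in that fit (adjusted p = 0.0577). At 3 reads the libraries with DMSO, VX745 or MK25 reach −2.71 to −2.23 log2 CPM, which limits genes listed below that level.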
